A study of Homo sapiens with 8 samples.

Results

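The baseline transcriptome of K562 cells that stably carried the p42-C/EBPa-ER fusion was taken from the vehicle-treated samples, 4 of the 8 arrays of the series, which their titles call biological replicates 1 to 4. K562 is an established human line, grown from the blast crisis of a chronic myeloid leukaemia, that carries the BCR-ABL fusion kinase. C/EBPa is the transcription factor that granulocyte precursors need, p42 is its full-length form, and ER is the estrogen receptor part that keeps the fusion out of the nucleus until estradiol is added. All 4 vehicle cultures carried the fusion too, so they are fusion cells before its activation and not untransfected K562. They grew in phenol red-free RPMI with 10% charcoal-stripped serum and had ethanol for 6 h. The other 4 samples had 1 µM beta-estradiol for 6 h and are not compared here. Whether the line was 1 clone, and how the replicate cultures were separated, is not stated, so the spread between arrays may be partly technical. With 1 group there is no test, and the levels below are a description.

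K562 cells can be driven towards red cell, platelet and, to a lesser degree, monocyte fates. Red cell precursors turn on GATA1 and KLF1, which act with TAL1 and LMO2 in DNA-bound complexes, and then the enzymes of haem synthesis, the transferrin receptor and the globins. Granulocyte precursors instead use C/EBPa and SPI1 and fill granules with myeloperoxidase and elastase. A fast-dividing leukaemia line also needs ribosomes, DNA replication and the metabolism that feeds them.

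Medians over all probe sets lay between 5.03 and 5.08 on the log2 scale of the deposited signals. The authors' RMA processing gives all arrays of a run the same distribution, so this likeness says little about the cultures. Replicate 2 was farthest from the mean of the others for 42.3% of genes and replicate 1 for 29.5%. Replicate 2 was the lowest array for 71.0% of the bright genes defined below and the highest for 37.2% of the dim ones. Replicate 1 was the highest for 54.5% of the bright genes and the lowest for 38.4% of the dim ones. Pearson's r over the 19775 genes ran from 0.995 for replicates 1 and 2 to 0.9985 for replicates 3 and 4. The difference between the 3′ and 5′ control probe sets of ACTB, a sign of RNA length, was 0.45 to 0.51 and highest in replicate 2. For GAPDH it was at most 0.01 on each array. The part of RNA length in the levels of replicate 2 was not tested.

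A gene was called bright where all 4 arrays lay above that array's 75th percentile over genes, a level of 8.13 to 8.27. It was called dim where all 4 lay below the 90th percentile of 52 measured genes of other tissues, such as surfactant, gut and skin genes, a level of 5.93 to 6.01. By these rules 4776 genes were bright, 24.2% of all genes, with a median signal of 9.50. Another 9471 genes were dim, 47.9% of all, with a median of 4.35, and 5528 lay between. Of the 52 genes of other tissues 43 were dim, 8 lay between and 1 was bright. That gene was KRT10, a keratin, at 11.53, 11.38, 11.52 and 11.47 in replicates 1 to 4. The second was SLC17A7, a glutamate transporter of neurons, at 7.06 to 7.21. Probe sets differ in how strongly they bind and amplify, so the classes compare signals between genes and do not rank transcript amounts. Dim does not show that a transcript was absent, and in such bulk samples fewer cells expressing a gene and less RNA per cell cannot be told apart.

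The lists below hold 781 measured genes in 34 lists, of 895 listed, and the other 114 were not analysed here. Of 267 lineage genes 71 were bright (26.6%) and 134 dim (50.2%), close to the shares of all genes. Of 267 growth genes 197 were bright (73.8%) and 19 dim (7.12%). The 252 metabolic genes held 175 bright ones (69.4%) and 37 dim ones (14.7%). The median signal was 5.78 over the lineage genes, 9.89 over the growth genes and 9.91 over the metabolic genes, beside 5.95 over all genes. Each list count below is to be read against the shares of all genes, 24.2% bright and 47.9% dim.

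**Figure D1:**
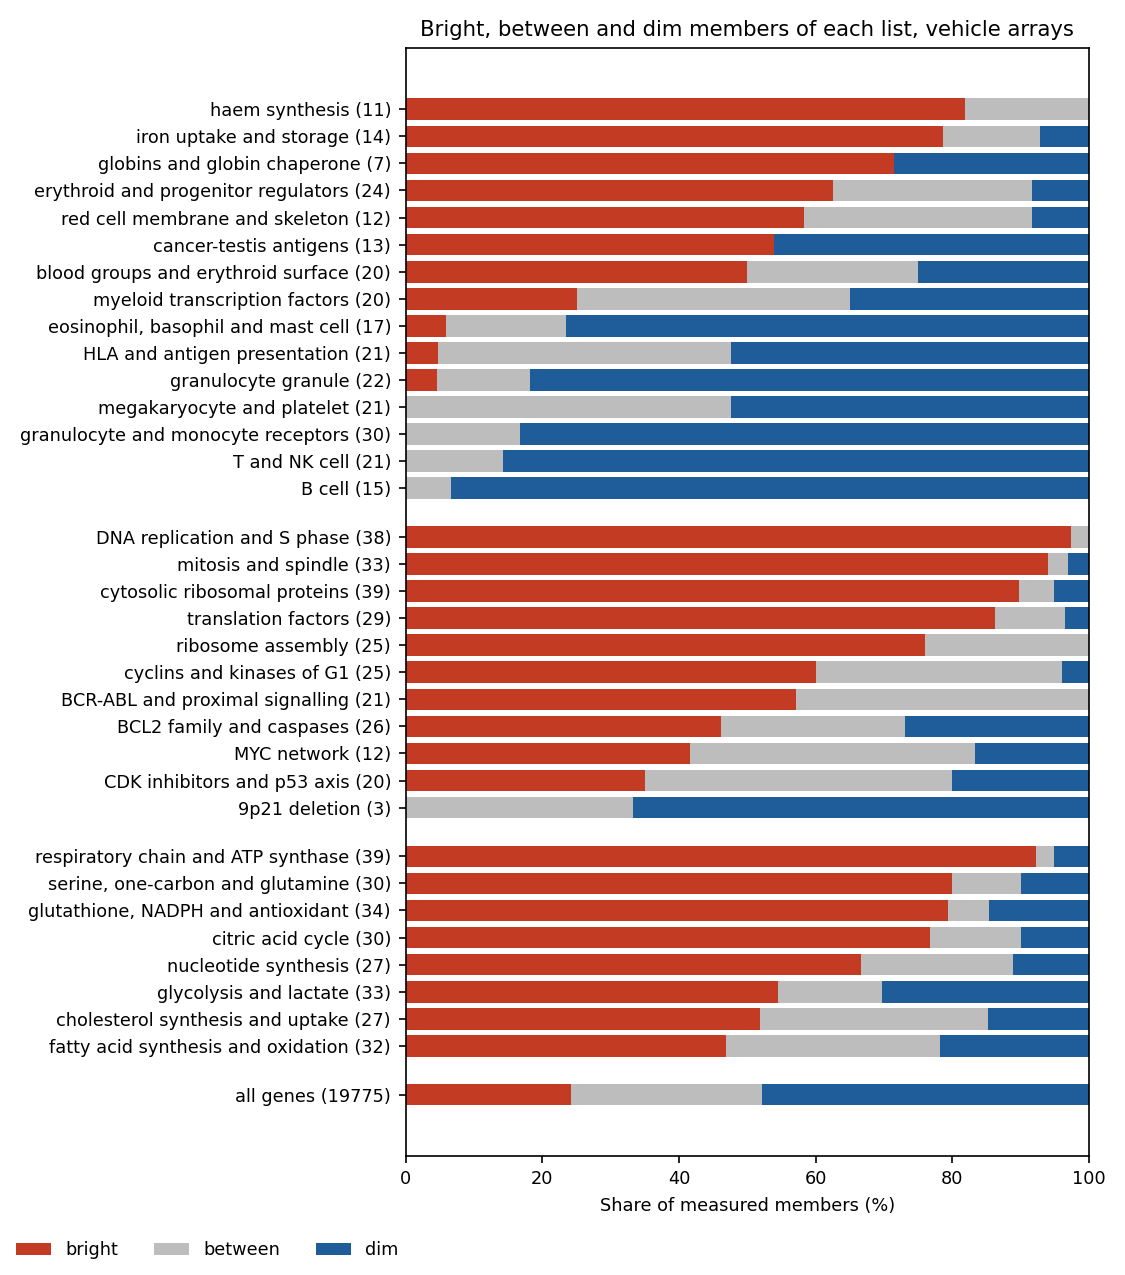
Share of the measured members of each list (x axis, percent) that were bright (red), between (grey) or dim (blue) on the 4 vehicle arrays, with the number of members in parentheses and all 19775 genes as the lowest bar. DNA replication, mitosis, respiratory chain and ribosomal protein lists are mostly red, and B cell, T and NK cell, granule and myeloid receptor lists are mostly blue.

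The cells carried the markers of their label. Of 10 K562 markers 7 were measured, and 6 of them were bright, namely GATA1, KLF1, TFRC, HBE1, HBZ and PRAME. The seventh, BCR, lay between at 7.29, 7.14, 7.26 and 7.23 in replicates 1 to 4. Its partner in the leukaemia's fusion kinase, ABL1, was bright at 10.14 to 10.25. Of 19 measured markers of other blood cells none was bright, 15 were dim and 4 lay between. The median over those 19 was 5.24 to 5.44 by array, beside 12.85 to 12.91 over the K562 markers.

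The genes that name the fusion were uneven by probe set. CEBPA, with 1 probe set, lay between at 6.33, 6.40, 6.44 and 6.31. ESR1, the estrogen receptor alpha gene, was bright on its chosen probe set at 8.64, 8.62, 8.81 and 8.75. Of its 9 probe sets 4 were bright, at means of 8.38 to 8.71, 1 lay between at 7.22, and 4 were dim, at means of 2.60 to 4.20. ESR2, the beta receptor, was dim on all 6 of its probe sets, and the chosen one read 5.53 to 5.79. Which probe sets match the introduced fusion was not analysed here, and its part in these signals was not tested.

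Regulators of red cell and progenitor fate were bright as a group. Of 24 measured, 15 were bright (62.5%), beside 24.2% of all genes. Another 7 lay between and 2 were dim (8.33%), with a list median of 9.03. LMO2, the bridging protein of the TAL1 complex, read 11.52, 11.47, 11.59 and 11.56. LYL1, a close relative of TAL1, read 10.99, 11.04, 11.01 and 11.08. Both were even over the arrays. MYB, which holds progenitors in division, stood at 10.60 to 10.75, and HHEX, a homeobox regulator of early blood cells, at 10.27 to 10.46. Of the 2 MYB probe sets 1 was dim. GATA1, on which the red cell fate rests, read 9.97, 9.93, 9.93 and 9.95, with an SD of 0.02. KLF1, which turns on adult red cell genes, was as even at 10.06 to 10.08. The other bright members were HEMGN, TAL1, GFI1B, NFE2, LDB1, HOXB4, IKZF1, CBFA2T3 and GATA2. Of the 9 IKZF1 probe sets 4 were dim, and IKZF1 fell between with the mean of all probe sets as the measure. The dim ones were ERG, at 3.60 to 3.87, and FLI1, at 4.48 to 4.94, both ETS factors of stem cells and megakaryocytes. Each of the 4 ERG and 6 FLI1 probe sets was dim.

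Globins of the embryo and their relatives were mostly bright. HBZ, the embryonic zeta chain, read 13.94, 13.98, 14.00 and 13.97, among the 12 highest signals outside the ribosomal protein and translation factor families. HBE1, the embryonic epsilon chain, read 13.46, 13.52, 13.53 and 13.54 on 1 probe set, while its other probe set was dim. HBQ1, a theta chain of the alpha cluster, was bright at 9.43 to 9.51. HBD, the minor adult delta chain, was bright at 8.98 to 9.06. HBB, the adult beta chain, read 8.33, 8.22, 8.52 and 8.46, just above the bright level on each array. Probe sets of near-identical globins can bind one another's transcripts, and HBB and HBD are such relatives. The dim members were AHSP, the chaperone of free alpha chains, at 5.80 to 5.94, and HBM, the mu chain, at 4.00 to 4.41. AHSP lay just inside the dim level, and it fell between when the mean of all probe sets stood for every gene. Further globins share probe sets and are given no value.

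The haem pathway had no dim member, with 9 of 11 bright and 2 between. UROD, which makes coproporphyrinogen, read 12.64, 12.59, 12.59 and 12.63. TMEM14C, a porphyrin carrier of the mitochondrial membrane, stood at 11.96 to 12.04, and ABCB10, a mitochondrial transporter of red cells, at 10.46 to 10.57. CPOX, the next enzyme after UROD, varied more, with 9.40 in replicate 2 and 9.58 to 9.66 in the others. PPOX, FECH, SLC25A38 and both aminolevulinate synthases, ALAS1 and the red cell form ALAS2, completed the bright members. UROS was even, at 7.90 to 7.93, and ALAD, the second enzyme of the path, read 6.55 to 6.78.

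Iron genes went the same way, with 11 of 14 bright, 2 between and 1 dim. FTL, the light chain of ferritin that stores iron, was nearly flat at 13.74, 13.75, 13.74 and 13.73. TFRC, the transferrin receptor that brings iron in, read 12.95, 13.00, 13.05 and 13.02 on its chosen probe set, while 2 of its 5 probe sets were dim. GLRX5 and ISCU, which build iron-sulfur clusters, stood at 11.54 to 11.63 and at 10.76 to 10.85. Stores, uptake and cluster assembly were thus all bright. SLC25A28, a mitochondrial iron carrier, lay between at 7.25 to 7.39. The dim member was HMOX1, the inducible enzyme that breaks haem down, at 4.37, 4.80, 4.71 and 4.53.

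Membrane and surface genes of red cells were mixed. Of 12 skeleton genes 7 were bright, 4 lay between and 1 was dim. EPB41, protein 4.1, stood at 10.90 to 10.97, and TMOD1, which caps short actin filaments, at 9.81 to 9.89. MPP1 was bright at 9.64 to 9.72 and ADD1, alpha adducin, at 9.62 to 9.72. SLC4A1, the band 3 anion exchanger of mature red cells, lay between at 6.77, 6.99, 6.95 and 6.89. EPB42, protein 4.2, was dim at 5.40 to 5.67. Of 20 blood group and surface genes 10 were bright, 5 lay between and 5 were dim. RHAG, the glycoprotein that carries the Rh complex, read 12.30, 12.18, 12.31 and 12.27, and all 3 of its probe sets were bright. BSG, CD47 and XK, 3 further surface proteins, stood at 10.96 to 11.08, 10.88 to 10.98 and 9.95 to 10.08. Of the 7 CD47 probe sets 3 were dim, and CD47 fell between with the mean of all probe sets as the measure. The dim members were ABCG2, CD44, ACKR1, CD36 and ART4, with CD36 at 4.13 to 4.36 and ART4, the Dombrock protein, at 3.68 to 3.84.

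To show what lies before red cell genes that were bright, the 250 bases upstream of the RefSeq start are printed for 2 of them, HBD at chr11:5234484-5234733 and ALAS2, the red cell enzyme that starts haem synthesis, at chrX:55030978-55031227. Both lie on the minus strand of GRCh38.p14 and are written 5′ to 3′ on the strand of the gene. ALAS2 read 8.33, 8.29, 8.37 and 8.33, just above the bright level on each array, and its other probe set was dim. It fell between when the mean of all probe sets stood for every gene. Capitals mark matches to the GATA letters AGATAA, which read TTATCT on the other strand, and to the CCAAT letters.
HBD: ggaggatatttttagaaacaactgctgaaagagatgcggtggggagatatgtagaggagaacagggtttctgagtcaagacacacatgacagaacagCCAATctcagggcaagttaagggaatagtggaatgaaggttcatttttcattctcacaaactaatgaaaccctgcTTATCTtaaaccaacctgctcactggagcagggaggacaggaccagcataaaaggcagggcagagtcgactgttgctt
ALAS2: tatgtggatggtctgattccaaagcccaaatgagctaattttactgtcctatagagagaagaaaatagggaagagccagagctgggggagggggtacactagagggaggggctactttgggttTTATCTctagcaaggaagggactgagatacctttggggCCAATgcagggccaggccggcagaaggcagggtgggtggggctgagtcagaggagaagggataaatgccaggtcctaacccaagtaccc
HBD held CCAAT from 153 to 149 bases before its start and the GATA letters on the other strand from 78 to 73. In ALAS2 the order was turned, with the GATA letters from 127 to 122 bases and CCAAT from 89 to 85 bases before the start. Over all 27305 windows of this length in the RefSeq set, 9.37% held the GATA letters on either strand, and 33.0% held CCAAT. The GATA share was 3.95% over bright genes and 10.0% over dim genes, beside 6.81% over the 15384 windows of measured genes. Lists of red cell genes were uneven, with 4 of 9 windows of the skeleton list, 4 of 16 of the blood group and surface list, 2 of 10 of haem synthesis, 1 of 20 of the regulators, 1 of 2 of the globin list and 0 of 11 of the iron list. The eosinophil, basophil and mast cell list had 4 of 12. Both windows printed hold the letters, so they do not stand for these lists as a whole. A match is a description of the letters and shows neither binding nor use.

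Platelet genes held no bright member, beside 24.2% bright over all genes. Of 21 measured, 10 lay between and 11 were dim (52.4%), near the 47.9% of all genes. CD9, a tetraspanin of platelets that many other cells carry, read 7.89 in replicate 2 and up to 8.08 in replicate 1. THBS1, thrombospondin, stood at 6.55 to 7.04, with its lowest value in replicate 2. ITGA2B, the platelet integrin chain CD41, lay between at 5.95 to 6.26. PEAR1 and RAB27B also lay between, at 6.49 to 6.81 and 6.24 to 6.56. The lowest members were P2RY12, the ADP receptor, at 2.76 to 3.37, and MMRN1, multimerin, at 2.57 to 2.84.

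Granulocyte and monocyte genes were dim as groups. Of 22 granule genes 18 were dim (81.8%), and of 30 receptor genes 25 were (83.3%), beside 47.9% of all genes. MPO, myeloperoxidase of the primary granule, read 4.32, 4.49, 4.30 and 4.43. ELANE, neutrophil elastase, stood at 4.47 to 4.65, CSF3R, the G-CSF receptor, at 5.08 to 5.57, and CD14, the monocyte receptor for endotoxin, at 4.20 to 4.57. The mean over the granule list was alike by array, at 4.70 to 4.77, which does not speak for each gene. The 1 bright granule gene was SERPINB1, a protease inhibitor found in many cells, at 8.79 to 8.96. LYZ, lysozyme, lay between at 7.76 to 7.95 and CAMP, a bactericidal peptide, at 5.65 to 5.99, as did CTSG. The SD of CTSG, 0.42, was the largest in the list, whose median SD was 0.13. OLFM4 and CEACAM8, both of late granules or mature neutrophils, were dim at 2.65 to 2.79 and 2.58 to 2.81.

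Among the receptors none was bright and 5 lay between. FCGR2A, an antibody receptor of phagocytes, read 7.46 in replicate 1 and 7.19 to 7.20 in the others. CXCR1 stood at 6.70 to 6.86, and IL3RA, a chain of the IL-3 receptor, at 6.12 in replicate 2 against 5.87 to 5.89. LILRB1 was also highest in replicate 2, at 6.75 against 6.11 to 6.31. FCER1G was the other member between. MRC1 and FCGR1A, receptors of macrophages and monocytes, were dim at 3.16 to 3.67 and 3.13 to 3.32. PTPRC, the CD45 phosphatase that marks white blood cells, was dim on all 5 of its probe sets and read 5.25, 5.14, 4.91 and 4.98 on the chosen one. CD34, the stem cell marker, read 5.07, 5.44, 5.29 and 5.64.

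Transcription factors of the myeloid lineage were split, with 5 of 20 bright, 8 between and 7 dim. The bright share was close to the 24.2% over all genes, and the dim share was below the 47.9% over all genes. The bright ones were ID1, CEBPB, STAT3, EGR1 and JUN, factors that many cell types use. CEBPB, a relative of C/EBPa, read 9.87, 9.77, 9.85 and 9.80. EGR1, an immediate early gene, was less even at 9.70, 9.37, 9.25 and 9.39, highest in replicate 1. SPI1, the PU.1 factor of granulocytes and monocytes, was dim at 5.79, 5.86, 5.88 and 5.78. CEBPE, needed for late granules, was dim at 5.16 to 5.44, GFI1 at 3.93 to 4.06 and KLF4 at 3.93 to 4.26. SPI1 lay close to the dim level and fell between with the mean of all probe sets as the measure.

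Eosinophil, basophil and mast cell genes had 13 of 17 dim (76.5%), beside 47.9% of all genes. The bright one was GATA2, which mast cells share with progenitors, at 8.90, 8.69, 8.87 and 8.90. MS4A3, a protein of basophils and granulocyte precursors, lay between at 7.77 to 8.15, KIT, the stem cell factor receptor, at 7.08 to 7.37, and PRG2, the major basic protein of eosinophils, at a mean of 7.11. FCER1A and CPA3 were dim at 3.69 to 3.94 and 3.36 to 3.59. No other gene of this list left the dim class.

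Lymphoid genes were dim in nearly all cases, beside 47.9% of all genes. The B cell list had 14 of 15 dim (93.3%) and the T and NK cell list 18 of 21 (85.7%). CD3D, a chain of the T cell receptor complex, was the exception, at 8.16, 7.90, 8.01 and 7.90. Its partner CD3E was dim at 5.20 to 5.30 and CD2 at 4.02 to 4.43. CD79A, of the B cell receptor, lay between at 6.14 to 6.29, while MS4A1 was dim at 3.74 to 4.34 and PAX5 at 5.73 to 5.88. CD4, at 6.01 to 6.57, and PRF1, at 6.00 to 6.08, were the other T and NK cell genes between. RAG2 and BLNK in the B cell list were dim at 2.69 to 2.95 and 2.95 to 3.39.

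**Figure D2:**
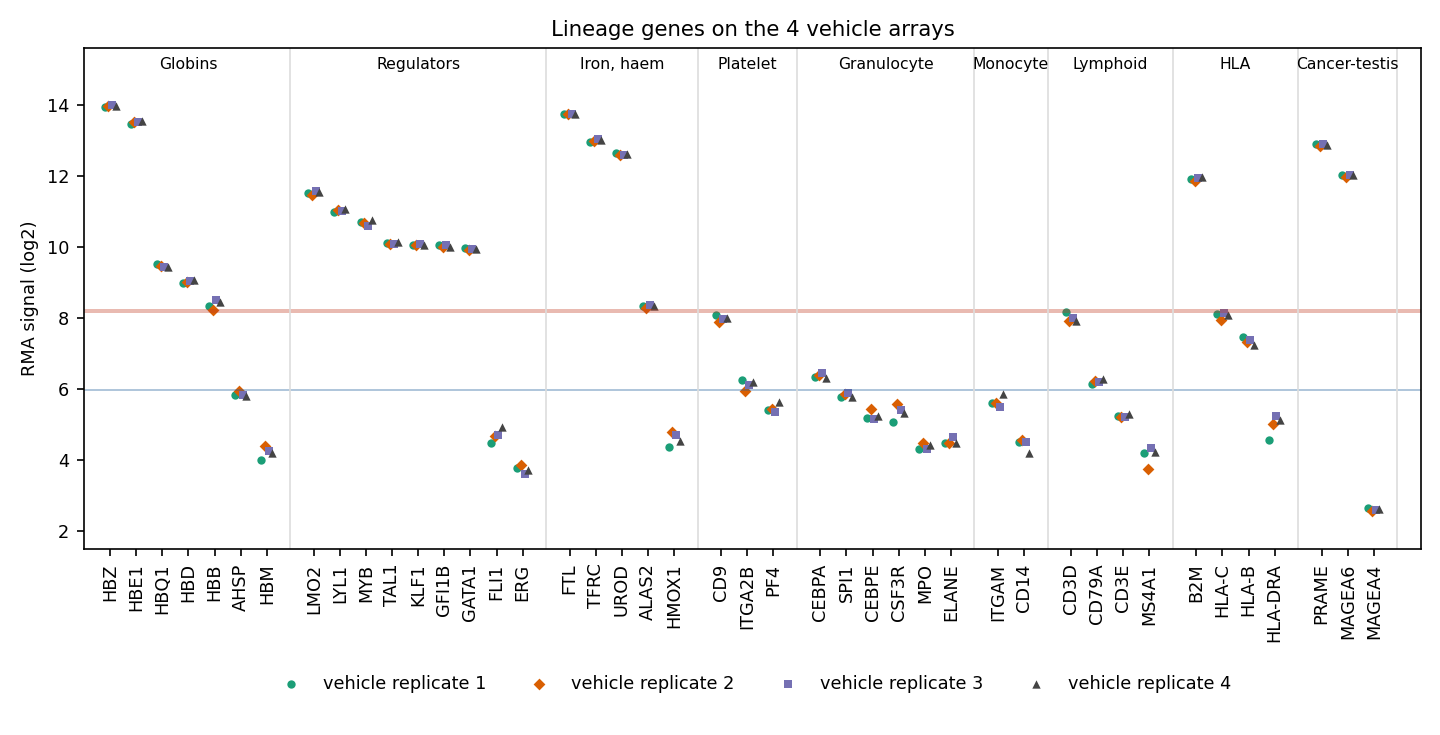
RMA signal (y axis, log2) of lineage genes on each of the 4 vehicle arrays, 1 symbol per array, with the red band for the range of the bright level and the blue band for the range of the dim level. The 4 arrays of a gene lie close together, HBZ and HBE1 are near the top of the scale, and MPO, ELANE, CD14 and MS4A1 lie below the blue band.

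Antigen presentation genes had 1 bright member of 21, with 9 between and 11 dim. The dim share of 52.4% was near the 47.9% of all genes. B2M, the light chain of all class I HLA molecules, read 11.91, 11.87, 11.94 and 11.96. The class I heavy chains did not reach the bright level on all arrays, with HLA-C at 7.93 to 8.14, HLA-E at 7.87 to 7.99 and HLA-G at 7.67 to 7.88. Probe sets of HLA genes can bind one another's transcripts, so these 3 cannot be told apart with certainty. Class II genes were dim, HLA-DRA at 4.55 to 5.24, HLA-DQA1 at 3.89 to 4.28 and HLA-DMA at 3.37 to 3.63. Where the mean over a gene's probe sets stood for the gene, 4 members and not 1 were bright.

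Cancer-testis antigens, germ cell proteins that tumours often turn on, fell into bright and dim members with none between. Of 13 measured 7 were bright and 6 dim (46.2%), the dim share near the 47.9% of all genes. PRAME, a repressor of retinoic acid signalling, read 12.89, 12.85, 12.91 and 12.87. MAGEA6 stood at 11.98 to 12.03, CTAG2 at 10.89 to 10.99 and MAGEA1 at 9.79 to 9.97. For MAGEA6 1 further probe set, shared with other symbols, was not used. Probe sets of near-identical genes can bind one another's transcripts, so these signals may not be specific to each gene. CTCFL, MAGEC1 and LAGE3 were the other bright ones. MAGEA4, of the same family as MAGEA1, was dim at 2.64, 2.56, 2.61 and 2.61. GAGE1 was dim at 3.48 to 3.86 on its own probe set, while 2 further probe sets that GAGE1 shares with other symbols were not used. MAGEB2 had the widest spread of any listed gene, with 5.57, 4.46, 4.88 and 5.51.

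Signalling genes around BCR-ABL had no dim member, with 12 of 21 bright and 9 between. CRKL, the adaptor that is a main substrate of the kinase, read 12.08, 11.96, 12.04 and 12.05. PTPN11, the SHP2 phosphatase, stood at 11.10 to 11.22, and SOCS2, a feedback target of STAT5, at 11.09 to 11.27. Both were lowest in replicate 2. JAK2 and INPP5D, the SHIP1 phosphatase, lay between at 7.03 to 7.18 and 6.44 to 6.65. PIM1, GRB2, LYN, SHC1, STAT5A, BCL2L1, STAT5B and AKT1 were the other bright members besides ABL1.

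In the MYC network 5 of 12 genes were bright, 5 lay between and 2 were dim. MYC itself was even, at 12.08, 12.09, 12.11 and 12.13. MAX, the partner MYC needs to bind DNA, stood at 10.65 to 10.77. MLX and MLXIP, of the nutrient-sensing branch, read 9.65 to 9.68 and 9.15 to 9.29. MLXIP had 2 of 4 probe sets dim and fell between with the mean of all probe sets. MLX had none dim. The liver form of that branch, MLXIPL, was dim at 5.10 to 5.77. MYCN was dim on each of its 10 probe sets, with 5.36 to 5.51 on the chosen one.

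Genes of ribosome building were bright in 19 of 25 cases and dim in none. NPM1, nucleophosmin, was flat at 13.55, 13.55, 13.53 and 13.52. FBL, which methylates ribosomal RNA, stood at 12.60 to 12.65, NCL, nucleolin, at 12.44 to 12.47, and NHP2 at 12.13 to 12.22. POLR1A, the large subunit of RNA polymerase I, lay between at 7.81 to 8.07, as did RRP9 at 7.77 to 7.86. Of 39 ribosomal proteins 35 were bright, with a list median of 13.60 and a median SD of 0.02. RPS18 read 14.16, 14.19, 14.19 and 14.20, and RPS23, RPL7 and RPS14 read 13.88 to 13.96. The 4 that were not bright included the tissue-restricted copies RPL39L and RPL10L, both between, and RPL3L of muscle, dim at 4.72, 5.64, 4.79 and 4.94. RPLP2, a stalk protein that every ribosome carries, was dim on its own 2 probe sets, with 4.40 to 4.44 on the chosen one. A further probe set shared with another symbol was not used.

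Translation factors were bright in 25 of 29 cases. EEF1A1, the elongation factor that carries tRNA, read 14.38, 14.37, 14.38 and 14.38. EEF2, EIF1 and EIF5A stood at 13.16 to 13.24, 13.07 to 13.11 and 12.91 to 12.95. The 1 dim member was EIF4A2, a helicase, at 2.76 to 2.78, with 2 shared probe sets not used, so this value may not stand for the gene. EIF5A2, EEF1A2 and EIF4E3, the last at 5.86 to 6.09, lay between.

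DNA replication was the list with the highest bright share, 37 of 38. PCNA, the sliding clamp, read 12.29, 12.22, 12.30 and 12.31. TYMS, which makes thymidylate, stood at 12.17 to 12.26, GMNN, geminin, at 11.88 to 11.93, and MCM6, a subunit of the replicative helicase, at 11.85 to 11.94. LIG1, the ligase that joins Okazaki fragments, was still bright at 8.26 to 8.42. The 1 member between was GINS4, a subunit of the same helicase complex, at 8.38 in replicate 1 and 7.23, 7.44 and 7.47 in the others. Its SD of 0.51 was the largest in the list, whose median SD was 0.05.

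Mitosis genes were bright in 31 of 33 cases. PTTG1, securin, read 11.71, 11.53, 11.62 and 11.64, and CDK1, the mitotic kinase, 11.49, 11.36, 11.40 and 11.43. Both were lowest in replicate 2, as were 27 of the 33 members. BUB3 and TOP2A stood at 11.39 to 11.52 and 11.25 to 11.43. CDC25C lay between, at 7.90 in replicate 1 and 7.74 to 7.75 in the others. UBE2C, an enzyme of the anaphase-promoting complex, was dim at 5.16 to 5.39 on its 1 probe set.

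The 250 bases before the start are shown for a mitosis and a replication gene, because CCAAT letters were frequent in both lists and E2F letters in the replication list. They are CCNB2, cyclin B2, at chr15:59104896-59105145 on the plus strand, and MCM6, at chr2:135876444-135876693 on the minus strand of GRCh38.p14. CCNB2 was bright at 11.02, 10.99, 11.03 and 11.02. Capitals mark CCAAT, which reads ATTGG on the other strand, the E2F letters TTTCGCGC or TTTGGCGC on either strand, which overlap in MCM6, and the Sp1 letters GGGGCGGGG.
CCNB2: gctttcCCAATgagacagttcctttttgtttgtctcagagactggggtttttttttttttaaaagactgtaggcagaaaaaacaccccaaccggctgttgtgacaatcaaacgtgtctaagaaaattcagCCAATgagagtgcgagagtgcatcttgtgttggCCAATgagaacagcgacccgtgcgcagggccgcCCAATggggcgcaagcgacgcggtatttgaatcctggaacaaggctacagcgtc
MCM6: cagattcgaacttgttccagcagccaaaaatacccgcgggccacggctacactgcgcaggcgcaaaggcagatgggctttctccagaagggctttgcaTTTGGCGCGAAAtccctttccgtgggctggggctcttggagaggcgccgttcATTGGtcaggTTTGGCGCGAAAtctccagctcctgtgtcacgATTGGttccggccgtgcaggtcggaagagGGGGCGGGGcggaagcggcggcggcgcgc
CCNB2 held 4 CCAAT matches, all on its own strand, that began 244, 120, 87 and 54 bases before the start. MCM6 held 2 CCAAT matches on the other strand, 4 overlapping E2F matches that began at 152, 148, 90 and 86 bases, and 1 Sp1 match at 29 bases. CCAAT stood in 20 of 27 windows of the mitosis list (74.1%) and in 19 of 35 of the replication list (54.3%), beside 33.0% over all windows of the table. A CCAAT share of this size was not particular to lists of the cell cycle. It was 13 of 17 (76.5%) in the HLA and antigen presentation list, which had 1 bright gene, and 15 of 24 (62.5%) in the cholesterol list. The E2F letters stood in 5 of 35 replication windows (14.3%), 1 of 27 mitosis windows (3.70%) and 5 of 19 of the G1 list (26.3%), beside 0.996% over the table. Bright genes as a whole held CCAAT in 37.6% of windows and dim genes in 32.0%, beside 34.1% over the measured genes.

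Across the classes the letters CCGGAAG of ETS sites stood in 858 of 4080 bright, 635 of 4433 between and 356 of 6871 dim windows (5.18%), and in 8 of 21 windows of the ribosome building list, beside 8.81% over the table. The TATA letters TATAAA ran the other way, in 4.98% of bright and 12.2% of dim windows, and in 15 of 39 of the genes of other tissues, beside 11.1% over the table. The Sp1 letters stood in 26.6% of bright, 28.4% of between and 15.0% of dim windows, beside 15.4% over the table. Their share was thus highest in the between class. E-box letters, CACGTG, which MYC and MAX can bind, stood in 10.1% of bright and 6.10% of dim windows, beside 6.49%. The letters CCACACCC, of the kind KLF1 can bind, were rare in all classes, at 2.43% of bright and 3.35% of dim windows, beside 2.90%. Bright windows held a median of 22 CG pairs and dim windows 9, with a median GC content of 64.8% and 57.6%. Motifs rich in C and G follow that base composition, and how much of each share it carries was not tested.

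**Figure D3:**
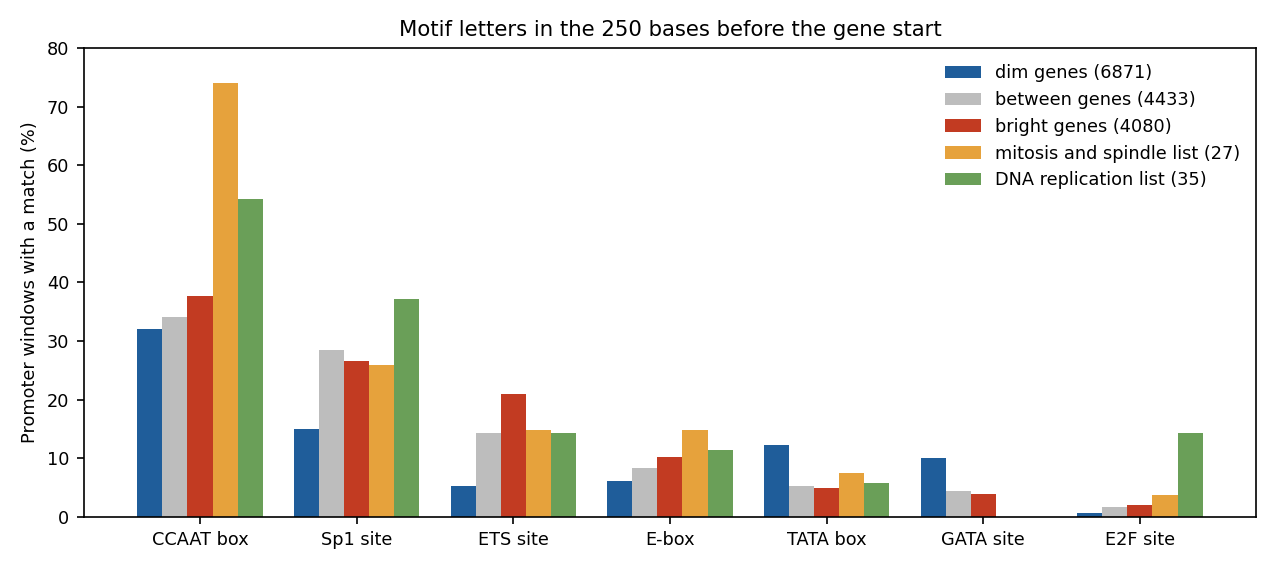
Share of promoter windows of 250 bases (y axis, percent) that hold the letters of each motif on either strand, for dim, between and bright genes and for the mitosis and the DNA replication lists, with the number of windows in parentheses. Of the groups drawn the mitosis list is highest for CCAAT, at 74.1%, while the HLA list, not drawn, reached 76.5%, and the ETS letters rise from dim to bright genes while the TATA and GATA letters are most frequent in dim genes.

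Cyclins and kinases of G1 were bright in 15 of 25 cases, between in 9 and dim in 1. CKS1B and CKS2, small partners of cyclin-dependent kinases, stood at 11.89 to 11.95 and 11.22 to 11.29. CCND3, cyclin D3, read 11.74, 11.79, 11.77 and 11.74, and CDK4 read 11.73, 11.73, 11.78 and 11.73. Of the 2 CCND3 probe sets 1 was dim. CCND1, cyclin D1, was dim on both of its probe sets, with 5.66 to 5.87 on the chosen one, and cyclin D2 was bright. CCND1 fell between when the mean of all probe sets stood for every gene. RBL1, a relative of the retinoblastoma protein, lay between at 6.21 to 6.33.

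Brakes on the cell cycle and the p53 axis had 7 of 20 bright, with 9 between and 4 dim. CCNG1, a p53 target, stood at 11.32 to 11.47, GADD45A, a stress gene, at 11.30 to 11.40, MDM4 at 9.21 to 9.49 and BTG1 at 9.16 to 9.30. MDM4 had 2 of 6 probe sets dim and BTG1 1 of 3, and both fell between with the mean of all probe sets. FAS, the death receptor, was dim on each of its 5 probe sets, with 4.28 to 4.31 on the chosen one. CDKN1C, CDKN1B and CDKN3 were the other bright members, and CCNG2, CDKN2D and CDKN2B were dim besides FAS.

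The genes of 9p21, a band that is deleted in K562, formed a run of dim neighbours. MTAP, which salvages methionine, read 5.25, 5.24, 5.37 and 5.46, and each of its 6 probe sets was dim. CDKN2B, the p15 inhibitor, read 4.56, 4.13, 4.44 and 4.61. CDKN2A, the p16 and ARF locus, lay between at 5.56, 6.09, 5.55 and 5.37, above the dim level in replicate 2 only. In chromosome order 27 measured genes lay between MLLT3, at 8.10 to 8.30, and CAAP1, bright at 8.93 to 9.04. Of these 27 all but CDKN2A and ELAVL2 were dim, which is 92.6%, beside 44.2% of the genes of chromosome 9 and 47.9% of all genes. The ends of that stretch were set where the signal rose. Over a window set by place alone, from 20 measured genes before MTAP to 12 after CDKN2B, 31 of 37 were dim (83.8%). Outside MLLT3 and CAAP1 it held the dim genes SMNP, IFT74, LRRC19, TEK, REXO6P and EQTN. ELAVL2, an RNA-binding protein of neurons, read 6.35, 5.75, 6.18 and 6.21, so its lowest array was below the dim level. Many of the 27 are type I interferon genes, which are silent in most cells at rest. FOCAD and KLHL9, which are no interferon genes, read 4.16 to 4.33 and 3.59 to 4.24. DNA copy number was not analysed here, and the part of the deletion in these signals was not tested.

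**Figure D4:**
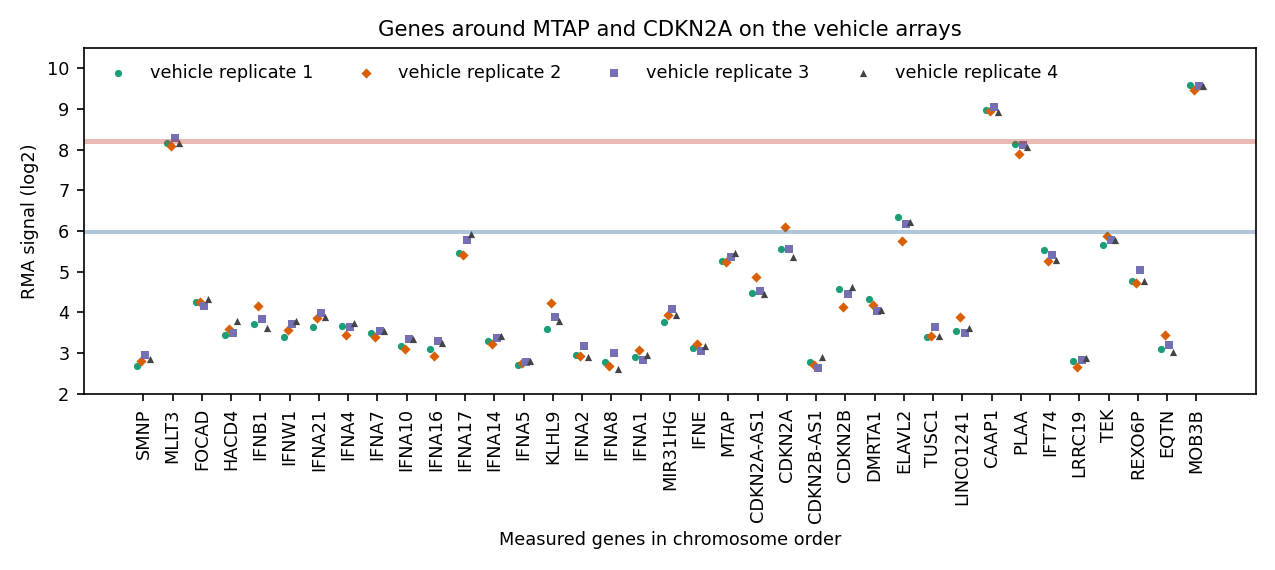
RMA signal (y axis, log2) of measured genes around MTAP and CDKN2A in chromosome order (x axis), 1 symbol per vehicle array, with the bright level as a red band and the dim level as a blue band. From FOCAD to LINC01241 the points lie below or at the blue band, except ELAVL2 and replicate 2 of CDKN2A, while MLLT3 and CAAP1 lie near or above the red band. Dim genes stand outside them too, SMNP on the left and 5 from IFT74 to EQTN on the right.

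Genes of apoptosis were spread over the classes, with 12 of 26 bright (46.2%), 7 between and 7 dim (26.9%). Over all genes 24.2% were bright and 47.9% dim. CYCS, cytochrome c, read 12.85, 12.81, 12.87 and 12.88. MCL1, a survival protein, read 11.15, 11.04, 11.15 and 11.16 on its chosen probe set, and 3 of its 6 probe sets were dim. BIRC2 and DIABLO stood at 10.39 to 10.55 and 10.38 to 10.51. BCL2L1, a survival protein and STAT5 target, was bright, and BCL2 itself was dim. BCL2A1, the survival protein of granulocytes, read 2.85 to 2.95, and BIK 4.15 to 4.30.

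Of 33 glycolysis genes 18 were bright, 5 lay between and 10 were dim. GAPDH read 13.87, 13.86, 13.92 and 13.87, ENO1, enolase, 13.29 to 13.32, LDHB 13.25 to 13.28 and LDHA 12.82 to 12.89. Both lactate dehydrogenase chains were thus bright and even. The dim members were ENO2, ENO3, PGK2, PGAM2, LDHC, SLC2A4, GAPDHS, PDK4, SLC16A7 and SLC2A2. Among these are testis forms (PGK2, LDHC, GAPDHS), muscle forms (ENO3, PGAM2), the insulin-responsive transporter SLC2A4 and SLC2A2, the glucose transporter of liver, which read 3.01 to 3.08. Forms known from certain tissues were not all dim. PKLR, pyruvate kinase of liver and red cells, was bright at 9.11 to 9.18, PFKM, the muscle phosphofructokinase, was bright at 8.96 to 9.07, and ALDOC, the brain aldolase, lay between at 7.73 to 8.04.

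The citric acid cycle had 23 of 30 genes bright. MDH2, malate dehydrogenase of the mitochondrion, read 12.62, 12.61, 12.61 and 12.60. DLD stood at 11.74 to 11.80, MDH1 at 11.56 to 11.65 and CS, citrate synthase, at 11.53 to 11.59. The dim ones were ME3, the testis form PDHA2, at 3.98 to 4.55, and PCK1, the liver enzyme of glucose synthesis, at 3.15 to 3.33. Subunits of the respiratory chain and ATP synthase were bright in 36 of 39 cases. ATP5F1A, ATP5PO, ATP5PB and ATP5MC3, parts of ATP synthase, stood between 12.99 and 13.19. COX4I2 lay between, and the heart and muscle forms COX6A2 and COX7A1 were dim at 4.89 to 5.35 and 4.28 to 4.43. Among transcripts of the mitochondrial genome COX2, ATP6 and ND4 were among the 12 highest signals outside ribosomal proteins and translation factors, with COX2 at 14.05, 14.06, 14.03 and 14.05.

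Cholesterol genes were bright in 14 of 27 cases, between in 9 and dim in 4. SQLE, an oxygenase late in the path, read 11.66, 11.62, 11.75 and 11.72. IDI1, FDPS and EBP stood at 10.87 to 11.00, 10.65 to 10.76 and 10.16 to 10.33. The dim members were SOAT2, ABCG1, IDI2 and ABCA1, the exporter of cholesterol, at 4.07 to 4.50. Fatty acid genes had 15 of 32 bright, 10 between and 7 dim. ELOVL5 and SCD, which lengthen and desaturate chains, stood at 11.52 to 11.63 and 10.86 to 11.02, and HADHA and HADHB, the chains of the oxidation enzyme, at 10.81 to 10.94 and 10.83 to 10.96. PPARG and FABP4, genes of fat cells, were dim at 4.00 to 4.40 and 3.89 to 4.08. Of the 32 members 24 were lowest in replicate 2, and the list mean was 7.87 there against 7.98 to 8.02.

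Nucleotide synthesis had 18 of 27 genes bright. NME1, a nucleoside diphosphate kinase, read 12.88, 12.86, 12.90 and 12.89, PAICS, of the purine path, 11.92 to 12.07, and IMPDH2, which starts guanine nucleotide synthesis, 11.83 to 11.89. The dim ones were the muscle enzyme ADSS1, the testis form PRPS1L1 and MTAP. In the serine, one-carbon and glutamine list 24 of 30 were bright. ODC1, which makes putrescine, was flat at 13.05 to 13.07, and MTHFD2, the mitochondrial folate enzyme, read 11.81, 11.71, 11.69 and 11.69. GOT2 and GLUL stood at 11.29 to 11.45 and 11.19 to 11.32. MTHFD1L and SHMT1 were dim at 3.93 to 4.30 and 3.74 to 3.88, with 2 shared probe sets each that were not used. MAT1A, the liver form of methionine adenosyltransferase, was the other dim member.

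Antioxidant genes had 27 of 34 bright, 2 between and 5 dim. PRDX1, a peroxidase of the cytosol, read 13.04, 13.06, 13.10 and 13.08. SOD1 stood at 12.83 to 12.89, PRDX6 at 12.74 to 12.80 and PRDX2, abundant in red cells, at 11.95 to 12.01. The dim members were GPX2, GSTA1, SOD2, GPX3 and GPX1. SOD2, the mitochondrial superoxide dismutase, read 4.07 to 4.52 on 1 probe set, and 4 more that it shares with other symbols were not used. GPX1, the glutathione peroxidase of most cells, read 3.30 to 3.65 on its 1 probe set. GPX3, the plasma form, read 4.94 in replicate 2 and 3.93 to 4.06 in the others.

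The spread over the arrays fell with the signal. The median SD was 0.06 over bright, 0.10 over between and 0.13 over dim genes. With genes ordered by level and cut into 10 equal bins, it was highest in the third bin from the dim end, at 0.14, and lowest in the brightest bin, at 0.05. Only 3 bright genes had an SD above 0.25, beside 217 between and 890 dim genes. The 3 were COX1, a mitochondrial transcript, at 14.07, 13.09, 13.16 and 13.30, DHX9, an RNA helicase, at 10.79, 10.80, 11.45 and 11.22, and VDAC1, a mitochondrial channel, at 10.90, 10.90, 11.47 and 11.27. DHX9 and VDAC1 were thus both higher in replicates 3 and 4. Without replicate 2 the number of genes with an SD above 0.25 was 492 and not 1110, and the 3 bright ones were still 3 in number.

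Of the 198 genes with the largest SD, 169 had replicate 2 farthest from the others, in 145 cases above them. In 11 of the 12 largest, replicate 2 was the highest array, and none of the 12 was bright. MUSK, a muscle kinase, read 5.07 there against 3.70 to 3.92, and HOXD10, a homeobox gene of the limb, 4.76 against 3.60 to 3.82. MRTFA, a coactivator of actin genes, lay between at 7.65 against 6.37 to 6.66, and PYY2 at 7.07 against 5.90 to 6.05. These largest spreads are therefore those of replicate 2 in dim and middle genes. In the eighth bin the median gene had a difference of -0.09 between replicate 2 and the mean of the other arrays, and in the third bin one of 0.06. Replicate 1 went the opposite way, with 0.09 in the seventh bin and -0.09 in the third.

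**Figure D5:**
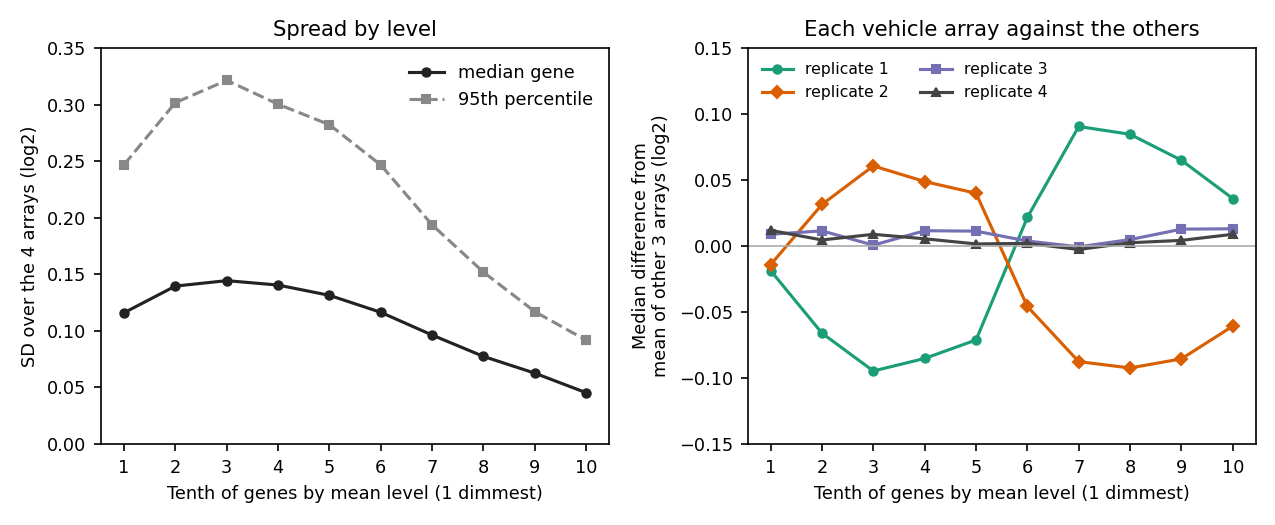
Left, the median and 95th percentile of the SD over the 4 vehicle arrays (y axis, log2) in 10 equal bins of genes ordered by mean level. Right, the median difference of each array from the mean of the other 3 (y axis, log2) in the same bins. The median SD falls from 0.14 in the third bin to 0.05 in the brightest, and replicates 1 and 2 bend in opposite directions while replicates 3 and 4 stay near 0.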

How the data were processed

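RNA of K562 cells carrying p42-C/EBPa-ER was amplified, labelled and put on arrays, and the 4 vehicle arrays were used here. The deposited values are log2 signals per probe set, and the authors used RMA for them, as the submitters' processing notes say. RMA subtracts background, gives all arrays of a run the same distribution and sums up the probes, so a shift shared by most genes would not show. The table held 54675 probe sets. By the platform annotation 41097 had 1 symbol, 1801 had several and 11777 had none listed. Each of 19775 genes was given its probe set with the highest vehicle mean. Such a choice favours high readings. Of 3249 bright genes with several probe sets 1631 had a dim one.

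Bright and dim were set as the report says, and SDs are over 4 arrays with no test. The array number limits the precision. Detection calls were not used here. Python 3.11.15, numpy 2.4.6 and pandas 2.3.3 were used, and the class rules were tested on simulated data. The members and lists were chosen with earlier results of these data known. Genes named with values were the 4 highest and 2 lowest members of each list, the 12 highest outside ribosomal protein and translation factor families, the 12 with the largest SD, and a fixed set of lineage, fusion and marker genes. Other names are complete classes, map neighbours, printed promoters or the 3 bright genes with wide spread, which were picked after their values were seen. Windows of 250 bases came from RefSeq (GRCh38.p14), the first per symbol, for 15384 measured genes. Alternatives were another choice of probe set, scaling, levels, and each array left out.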

Additional observations from a re-analysis of the deposited data

Results flagged for a closer look

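Among the 234 genes named by rule 15 (6.41%) had 1 of 4 arrays far from the rest, with a gap to the nearest other array, as a share of the whole range, above Dixon's 95% critical value. Chance does this in about 1 of 20 separate groups of 4 that were not picked for their spread. The 234 genes share the same 4 arrays and include the 12 with the largest SD, of which 3 (LINC02724, MUSK and PYY2) are among the 15, so that rate is no measure for them. In 10 of the 15 the array was replicate 2, 7 times the highest and 3 times the lowest, in 4 it was replicate 1, always the highest, and in 1 it was replicate 3.

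Replicate 2 was high for GPX3 (gap 0.873 of the range, 4.94 against 3.93 to 4.06), MUSK (0.840, 5.07 against 3.70 to 3.92), LINC02724 (0.909, 4.75 against 3.58 to 3.69), PYY2 (0.873, 7.07 against 5.90 to 6.05), IL3RA (0.928, 6.12 against 5.87 to 5.89), AHSP (0.845, 5.94 against 5.80 to 5.82) and SHMT1 (0.841, 3.88 against 3.74 to 3.76). It was low for GATA2 (0.846, 8.69 against 8.87 to 8.90), BUB3 (0.856, 11.39 against 11.50 to 11.52) and MCL1 (0.854, 11.04 against 11.15 to 11.16). The 7 high genes were dim or between and the 3 low genes bright.

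Replicate 1 was high for FCGR2A (0.951, 7.46 against 7.19 to 7.20), CDC25C (0.963, 7.90 against 7.74 to 7.75), CKS2 (0.937, 11.29 against 11.22 to 11.23) and GMNN (0.854, 11.93 against 11.88 to 11.89). CDK4 was high in replicate 3 (0.862, 11.78 against 11.73). None of the 5 gaps was over 0.3 in log2 signal.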

How the results depend on the processing

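Centring each array on its median, or quantile normalization of the 4 arrays, left every class count of all genes and lists as it was, since the levels are percentiles of each array itself. Leaving out 1 array in turn gave 4796 to 4818 bright and 9487 to 9671 dim genes, and a median SD of 0.0764 to 0.102. The median SD was also 0.0763 over genes that were not dim. Of 234 named genes 125 moved by more than their SD where the mean over a gene's probe sets stood for it.

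List counts are given below only where they changed by more than a set ratio, and with that mean 10 of 68 did. Smaller changes are left out, such as that of the haem list, where PPOX and ALAS2 fell from bright to between. Bright members under that mean numbered 2 in the eosinophil, basophil and mast cell list, 1 in T and NK cell and 4 in HLA. Dim members then numbered 5 among the erythroid regulators, 1 each in the globin, BCR-ABL, MYC network and ribosomal protein lists, 2 among translation factors and 0 in G1. Taking means over arrays against the mean level gave 2 dim translation factors, as did leaving out replicate 1.

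With the upper quartile over all probe sets as the bright level, which lies lower, 7353 of 19775 genes were bright. The main rule gave 4776. Bright members were then 1 of 21 in the megakaryocyte, 2 of 22 in the granule and 1 of 30 in the receptor list. They were 9 of 20 in the myeloid factor and 4 of 17 in the eosinophil list. The T and NK cell list had 1 of 21 and the HLA list 5 of 21. The BCR-ABL list had 20 of 21, the G1 list 23 of 25 and the CDK inhibitor list 11 of 20. With the lower quartile over genes as the dim level 4412 of 19775 genes were dim, beside 9471 by the main rule. Dim members were then 8 of 22 in granule, 10 of 30 in receptors and 8 of 21 in T and NK cell. The main rule had given 18, 25 and 18 there. Erythroid regulators had 1 of 24, globins 1 of 7, blood groups 2 of 20, megakaryocyte 4 of 21 and myeloid factors 2 of 20. Eosinophil genes had 6 of 17, HLA 4 of 21 and cancer-testis 2 of 13. CDK inhibitors had 1 of 20, BCL2 genes 2 of 26, glycolysis 5 of 33 and the citric acid cycle 1 of 30. The fatty acid, nucleotide and glutathione lists had 1 each. None was dim among iron, membrane, MYC network, ribosomal protein, mitosis, G1, respiratory chain and cholesterol genes. The 3 genes of the 9p21 list were not dim either. How strongly a list reads as dim thus depends on the level chosen.

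No paired analysis was possible because no comparison between groups was made. Array signals near background have no floor here, so order among dim genes means little, and the classes rest on levels that were chosen.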

Other observations

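By chromosome, the share of bright genes ran from 19.5% of 1320 genes on chromosome 19 to 28.7% of 1926 genes on chromosome 1, and the share of dim genes from 37.8% on chromosome 16 to 58.8% on chromosome 4. These shares cover genes placed by RefSeq and were not tested.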
